A study of Mus musculus with 12 samples.

Results

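The interferon-stimulated genes are a set of genes whose transcription is switched on by interferons. Here 34 of them were followed by name in RNA-seq of mouse brown adipose tissue (BAT), out of the 25124 genes in the table of expression values. They were chosen by gene symbol and by their known response to interferon, and all 34 symbols were found. The study asked how the loss of Txnip, which encodes thioredoxin-interacting protein, changes BAT at 2 housing temperatures. It has 4 groups of 3 libraries each: RT WT and RT Txnip-/- from mice kept at 23 °C (room temperature, RT), and TN WT and TN Txnip-/- from mice kept at 30 °C (thermoneutrality, TN). All mice were males of 10 weeks, were acclimated to their temperature for 1 week, and the knockout line was kept on a C57B/6J background. The Txnip-/- groups lack Txnip with no cell type named for the deletion, so a difference between genotypes can arise in any cell of the tissue or outside it. The labels number the 3 libraries of a group but do not say that each came from a mouse of its own, so p-values here measure the spread between these libraries.

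Interferons are secreted proteins that announce an infection. Type I interferons act through the receptor chains Ifnar1 and Ifnar2, type II interferon (Ifng) through Ifngr1 and Ifngr2, and the kinases Jak1 and Tyk2 or Jak1 and Jak2 then phosphorylate STAT proteins. The complex ISGF3, which holds Stat2 and Irf9, binds a DNA motif called the interferon-stimulated response element (ISRE), and other STAT complexes bind the gamma-activated sequence (GAS). The genes switched on in this way include sensors of viral nucleic acid, enzymes that block translation or degrade RNA, membrane proteins that hold back viruses, and the transcription factors that keep the response going. In adipose tissue, macrophages, other leukocytes, endothelial cells and adipocytes can all express such genes, and a library of whole tissue does not separate them.

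Expression was given as TPM, read counts scaled for transcript length and to one total in each library, so that levels of different genes may be compared. Sequencing depth ran from 29.93 M to 47.44 M reads per library (M, megareads), and libraries of 1 group correlated with r between 0.9854 and 0.9934 over 12486 genes. Txnip itself fitted the labels, with 564 to 694 TPM in RT WT against 24.8 to 35.4 TPM in RT Txnip-/-, and 1072 to 1238 TPM in TN WT against 10.5 to 14.4 TPM in TN Txnip-/-. The brown adipocyte markers (Ucp1, Cidea, Adipoq and 5 others) summed to at least 17294 TPM in each library. Within their groups, 2 TN libraries were low for most of the genes described here. TN WT replicate 1, the most deeply sequenced library, held the lowest value of its group for 32 of the 34 members, against 38.9% of the 12486 genes, and TN Txnip-/- replicate 3 for 29 of the 34, against 33.4%. At RT no library was lowest for more than 21 of the 34 (RT Txnip-/- replicate 2, against 43.0% of the genes).

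The promoters show what the members share at the level of sequence. RefSeq promoter windows (GRCm38.p6, the assembly also called mm10) of 300 bases, from 250 bases before to 50 bases after the start of transcription, were matched by symbol for 25 of the 34 members. Dhx58, Ifi27l2a, Mx1, Mx2, Oas2, Parp14, Rtp4, Usp18 and Zbp1 had none. The letters searched were those of the ISRE core, GAAA, then any 2 bases, then GAAA, on both strands. They occurred in a window of 14 of the 25 members (56.0%) and of 1079 of 27025 genes with a window (3.99%). The GAS-like letters TTCNNNGAA, a palindrome, occurred for 7 of the 25 members (28.0%) against 9.55% of all genes. The following windows are shown because their genes rose with temperature and hold the core, 5 of them by the size of their genotype difference at TN and Isg15, chosen after its values were seen, for its run of overlapping matches. Capitals mark the core on either strand, and each sequence reads 5′ to 3′ along its gene. For Bst2 (chr8:71537473-71537722, minus strand), Gbp7 (chr3:142530086-142530335, plus strand), Ifit3 (chr19:34583279-34583528, plus strand) and Isg15 (chr4:156200819-156201068, minus strand) the 250 bases before the start are given. For Ifih1 (chr2:62646206-62646233) and Ifitm3 (chr7:141010715-141010743), both on the minus strand, the matches lie just after the start and only the bases around them are given.
Bst2: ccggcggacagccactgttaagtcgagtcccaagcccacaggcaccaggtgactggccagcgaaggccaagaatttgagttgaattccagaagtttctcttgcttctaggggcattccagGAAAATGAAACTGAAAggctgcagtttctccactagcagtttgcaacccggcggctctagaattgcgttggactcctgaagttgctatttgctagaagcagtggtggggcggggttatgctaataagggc
Gbp7: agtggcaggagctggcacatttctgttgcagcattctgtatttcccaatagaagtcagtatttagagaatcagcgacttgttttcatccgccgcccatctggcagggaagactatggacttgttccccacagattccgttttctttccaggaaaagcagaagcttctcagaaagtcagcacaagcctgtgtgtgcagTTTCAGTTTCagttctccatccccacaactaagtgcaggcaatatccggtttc
Ifit3: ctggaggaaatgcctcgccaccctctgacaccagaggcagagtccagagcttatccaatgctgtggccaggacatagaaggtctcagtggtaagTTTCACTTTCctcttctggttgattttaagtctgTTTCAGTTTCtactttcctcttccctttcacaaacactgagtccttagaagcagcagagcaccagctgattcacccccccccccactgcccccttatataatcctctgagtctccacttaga
Isg15: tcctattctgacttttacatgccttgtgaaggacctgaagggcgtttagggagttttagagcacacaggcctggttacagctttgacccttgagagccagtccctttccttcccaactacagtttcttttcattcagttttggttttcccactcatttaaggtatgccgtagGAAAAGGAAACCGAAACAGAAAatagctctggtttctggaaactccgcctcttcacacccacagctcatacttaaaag
Ifih1: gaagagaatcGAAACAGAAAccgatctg
Ifitm3: gGAAAAGGAAActtctgaGAAACCGAAAc

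In Isg15 3 overlapping copies of the core begin at positions -78, -72 and -66 from the start, and in Bst2 2 overlapping copies begin at -130 and -124. Ifit3 carries 2 separate copies on the other strand, which begin at -156 and -122. Among the members tested, the 12 with the core in a window had a median log2 difference between TN WT and RT WT of 0.83, the 11 with a window but no core 0.51, and the 7 without a window 0.80. These medians are a description, and a match of letters does not show that a factor binds there.

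The levels of the members spanned a wide range. Ifi27l2a (mean 112 TPM over the 12 libraries) and Ifitm3 (101 TPM) were the most abundant, followed by Bst2 (55.4 TPM), Gbp2 (31.2 TPM) and Irf1 (29.0 TPM). At the other end stood Oas1a (0.96 TPM), Mx2 (0.762 TPM), Mx1 (0.525 TPM) and Oas3 (0.23 TPM), which did not reach a mean of 1 TPM over the 12 libraries, so that 30 of the 34 members entered tests on all 12. The rows listed for Mx1 and Mx2 are non-coding RefSeq transcripts, so these values do not measure an mRNA that encodes the Mx proteins. A mean of log2(TPM + 1) was taken over the 30 members in each library, as a description without a test. It was 2.73, 2.77 and 2.82 in RT WT, and 2.84, 2.73 and 2.84 in RT Txnip-/-. At TN it was 3.18, 3.52 and 3.73 in WT and 3.78, 3.87 and 3.59 in Txnip-/-. Each TN library thus lay above each RT library, the genotypes overlapped at each temperature, and the TN WT libraries were the most spread, with a mean of 3.47 ± 0.28 (SD, n = 3) against 3.75 ± 0.14 in TN Txnip-/-.

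**Figure D1:**
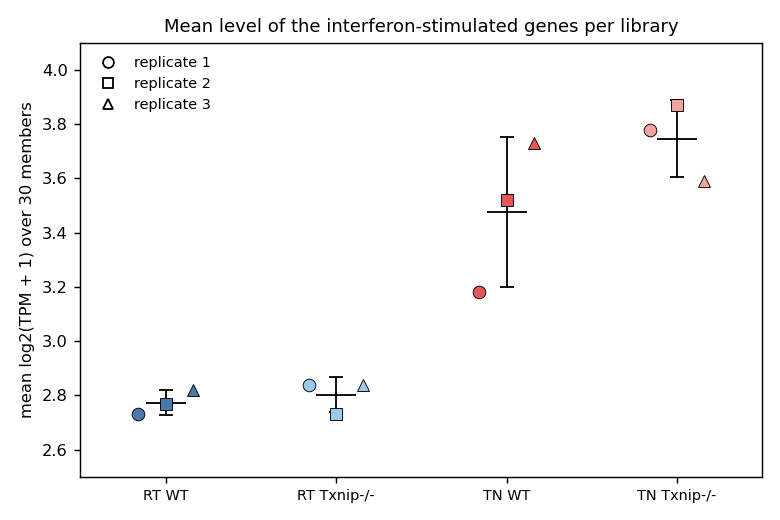
Mean log2(TPM + 1) of the 30 members that reached a mean of 1 TPM, per library (vertical axis) and group (horizontal axis). Symbols are the 3 replicates, and bars are the group mean ± SD. The 6 TN libraries sit between 3.18 and 3.87 and the 6 RT libraries between 2.73 and 2.84, with the lowest TN value in TN WT replicate 1.

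The first comparison set WT mice after 1 week at TN against WT mice at RT. The labels do not say whether the RT and TN libraries were prepared and sequenced together. A difference of that kind could not be told apart from temperature, here and in the other comparisons of TN with RT. Of the 30 members tested, 26 rose and none fell in TN WT against RT WT, where a call needed an adjusted p under 0.05 and a log2 fold change beyond 0.32 or -0.32. Over all 12486 genes tested, 31.4% were called higher and 6.39% lower. The median log2 fold change was 0.79 over the members and 0.18 over all genes, a difference of 0.61. In 24 of the 30 members the lowest TN WT library lay above the highest RT WT library, as it did for 45.5% of all genes. Because the median of all genes also rose, the libraries were also rescaled. With upper-quartile scaling 20 of the 30 members rose (17.5% of all genes) and with median centring 20 of the 30 (15.4% of all genes). The share of higher genes among all calls went from 83.1% to 55.5% and 51.1% under these scalings, while the median of the members stayed 0.60 and 0.61 above that of all genes. Since a gene can pass the low-value filter through its TN libraries alone, as Zbp1 and Oasl1 did, the count was also taken without the filter, and 26 of the 34 members rose against 19.7% of all genes.

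Among the transcription factors all 4 rose. Irf7, which drives the amplification of type I interferon, was at 4.43, 4.44 and 4.30 TPM in RT WT and at 6.03, 9.14 and 13.6 TPM in TN WT (log2 fold change 0.91, SE 0.21, adjusted p = 0.00487). The groups did not overlap, but the TN WT values differed by more than 2-fold among themselves. Irf1 rose by 0.90, Stat2 by 0.60 and Irf9 by 0.42 on the log2 scale, the latter pair being parts of ISGF3.

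Of the sensors of viral nucleic acid, Ifih1 (MDA5), Ddx58 (RIG-I) and Zbp1 rose and Dhx58 (LGP2) was not called (0.26, adjusted p = 0.118). Zbp1, a sensor of Z-form nucleic acid that can start necroptosis, had 0.691, 0.411 and 0.594 TPM in RT WT and 1.51, 2.49 and 3.71 TPM in TN WT. This was a rise of 1.15 on the log2(TPM + 1) scale (SE 0.21, adjusted p = 0.00112), a scale that understates the 4.54-fold ratio of the mean TPM for so low a gene.

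The oligoadenylate synthetases make the messenger that activates RNase L. Oasl2, an OAS-like protein of the same family, was at 2.12, 1.49 and 1.56 TPM in RT WT and at 3.83, 4.79 and 4.76 TPM in TN WT, with no overlap (log2 fold change 1.01, SE 0.12, adjusted p = 0.000144). Oas2 (0.17) and Oasl1 (0.21) were not called, and Oas1a and Oas3 were too low to be tested, with means of 0.399 and 0.0517 TPM in RT WT against 0.972 and 0.288 TPM in TN WT.

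The IFIT proteins bind viral RNA that lacks the host's cap marks, and all 3 rose. Ifit3 (chr19:34583529-34588982) was at 2.39, 1.69 and 2.68 TPM in RT WT and 3.71, 6.74 and 11.2 TPM in TN WT (log2 fold change 1.24, SE 0.26, adjusted p = 0.00233). Ifit2 rose by 0.72 and Ifit1 by 0.63, and for Ifit1 the groups overlapped. The 3 genes lie within 1 cluster on chromosome 19, where the sources used here do not say how reads shared with near copies such as Ifit3b were counted, so that their separate values are uncertain.

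Of the large GTPases, the 3 guanylate-binding proteins tested all rose. Gbp2 (chr3:142620663-142638008) encodes an interferon-induced GTPase that acts on the membranes around pathogens. It was at 16.8, 15.9 and 16.7 TPM in RT WT and 27.3, 45.2 and 53.3 TPM in TN WT, a 2.55-fold ratio of the means (SE of the log2 fold change 0.19, adjusted p = 0.00047). Gbp7 had 5.52, 6.76 and 5.60 TPM in RT WT and 10.8, 14.4 and 16.5 TPM in TN WT (log2 fold change 1.08, SE 0.14, adjusted p = 0.000185). Neither gene overlapped between the temperatures, and in both the lowest TN WT value was that of replicate 1. Gbp3 rose by 0.92. Mx1 and Mx2 were not tested here, with means of 0.0887 and 0.46 TPM in RT WT and 0.554 and 0.987 TPM in TN WT. The Gbp genes are close relatives of each other on chromosome 3 and carry the same uncertainty as the IFIT genes.

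The ubiquitin-like protein Isg15, its protease Usp18 and its ligase Trim25 rose by 0.85, 0.87 and 0.39. The membrane proteins Bst2 (tetherin), Ifitm3, which blocks fusion of viruses with endosomes, and Rtp4 rose by 0.92, 0.78 and 0.92. Of the other effectors, Xaf1 (0.88), Rsad2 (viperin, 0.81), Parp14 (0.80), Cmpk2 (0.51), Ifi44 (0.48) and Ifi35 (0.46) rose. Rsad2 and Cmpk2 are neighbours on chromosome 12. Ifi27l2a was the exception, with a log2 difference of -0.22 and an adjusted p of 0.251.

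In Txnip-/- mice the same comparison gave 29 of 30 members higher and none lower in TN Txnip-/- against RT Txnip-/-, against 30.9% and 8.27% of all 12486 genes. The median log2 fold change was 0.98 over the members and 0.15 over all genes. The TN libraries lay entirely above the RT libraries for 29 of the 30 members and for 44.1% of all genes. With upper-quartile scaling 26 members rose (21.2% of all genes) and with median centring 25 (18.4% of all genes), the share of higher genes among all calls going from 78.9% to 56.0% and 48.5%. Without the low-value filter 32 of 34 members rose, against 20.5% of all genes. The tested member that was not called was again Ifi27l2a (-0.20, adjusted p = 0.308). Skeletal muscle markers fell in this comparison, 7 of the 7 tested with a median of -1.81, from a sum of 22.8 to 57.6 TPM at RT to 4.0, 17.9 and 3.54 TPM at TN. In TN WT their sum was 4.09, 19.2 and 2.92 TPM. A marker can pass the low-value filter through the RT Txnip-/- libraries alone. The part of muscle RNA in these values was not tested.

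Ifit3 led, at 1.92, 2.09 and 2.09 TPM in RT Txnip-/- and 8.97, 9.76 and 8.60 TPM in TN Txnip-/- (log2 fold change 1.74, SE 0.26, adjusted p = 0.000229). Its 3 TN values lay close together, unlike those in WT. Zbp1 had 0.999, 0.68 and 1.21 TPM at RT and 4.57, 5.41 and 3.55 TPM at TN (1.48, SE 0.21, adjusted p = 0.000158). Gbp2 had 17.4, 15.4 and 19.0 TPM at RT and 50.3, 54.9 and 41.8 TPM at TN (1.45, SE 0.19, adjusted p = 0.000113).

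Oasl2 had 1.82, 1.67 and 1.98 TPM at RT and 6.88, 7.5 and 5.74 TPM at TN (1.44, SE 0.12, adjusted p = 1.09e-05), and Irf7 had 5.56, 4.88 and 5.18 TPM at RT and 18.2, 17.5 and 12.1 TPM at TN (1.43, SE 0.21, adjusted p = 0.000259). None of these 5 genes overlapped between the temperatures. Dhx58 (0.53), Oas2 (0.50) and Oasl1 (0.52), which were not called in WT, were called in Txnip-/-, but the difference between the genotypes was not called for any of them, as the interaction below shows. Oasl1 and Zbp1 passed the low-value filter only through their TN libraries, Oasl1 with a mean of 0.874 TPM in RT Txnip-/- and 1.69 TPM in TN Txnip-/-. The other members called had log2 fold changes from 0.39 (Trim25) to 1.32 (Bst2).

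**Figure D2:**
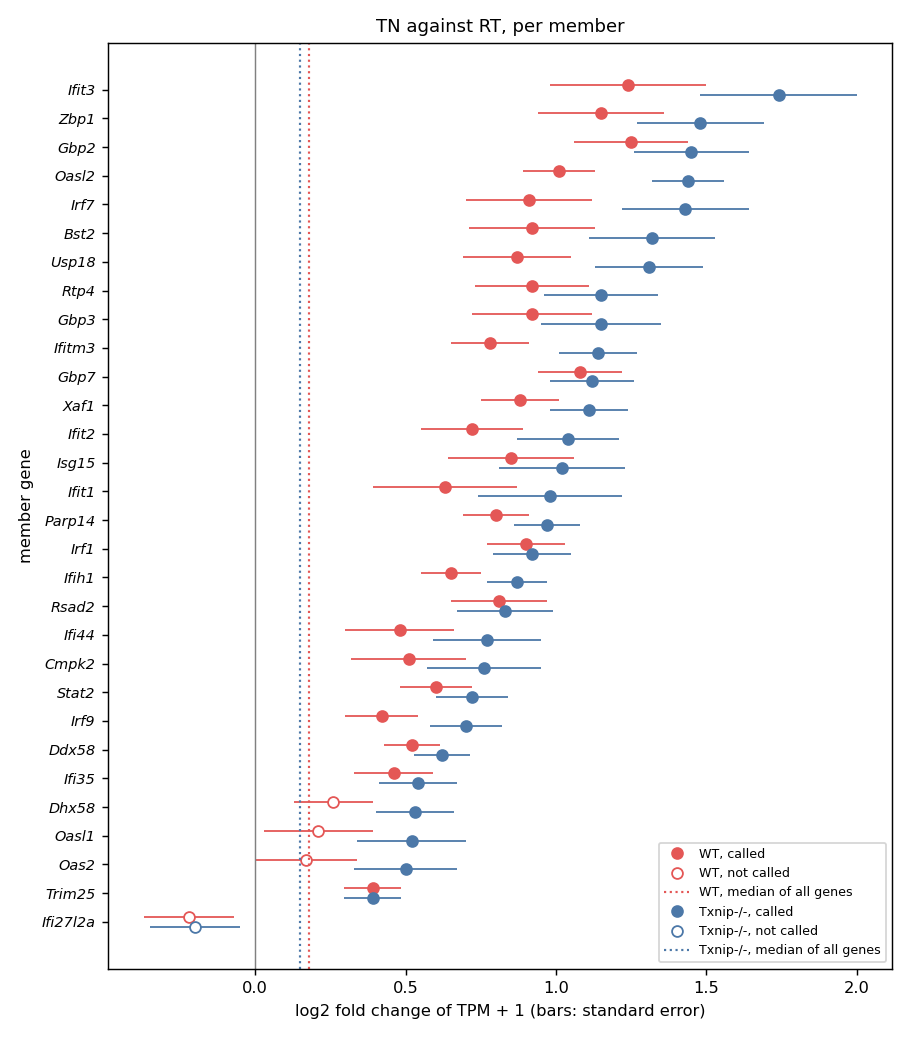
Log2 fold change of TPM + 1 at TN against RT (horizontal axis, bars are standard errors) for the 30 members tested (vertical axis), in WT and in Txnip-/-. Filled symbols passed the call, and dotted lines are the medians of all genes, 0.18 in WT and 0.15 in Txnip-/-. Most members lie well to the right of these lines in both genotypes, while Ifi27l2a lies to the left of 0.

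**Figure D3:**
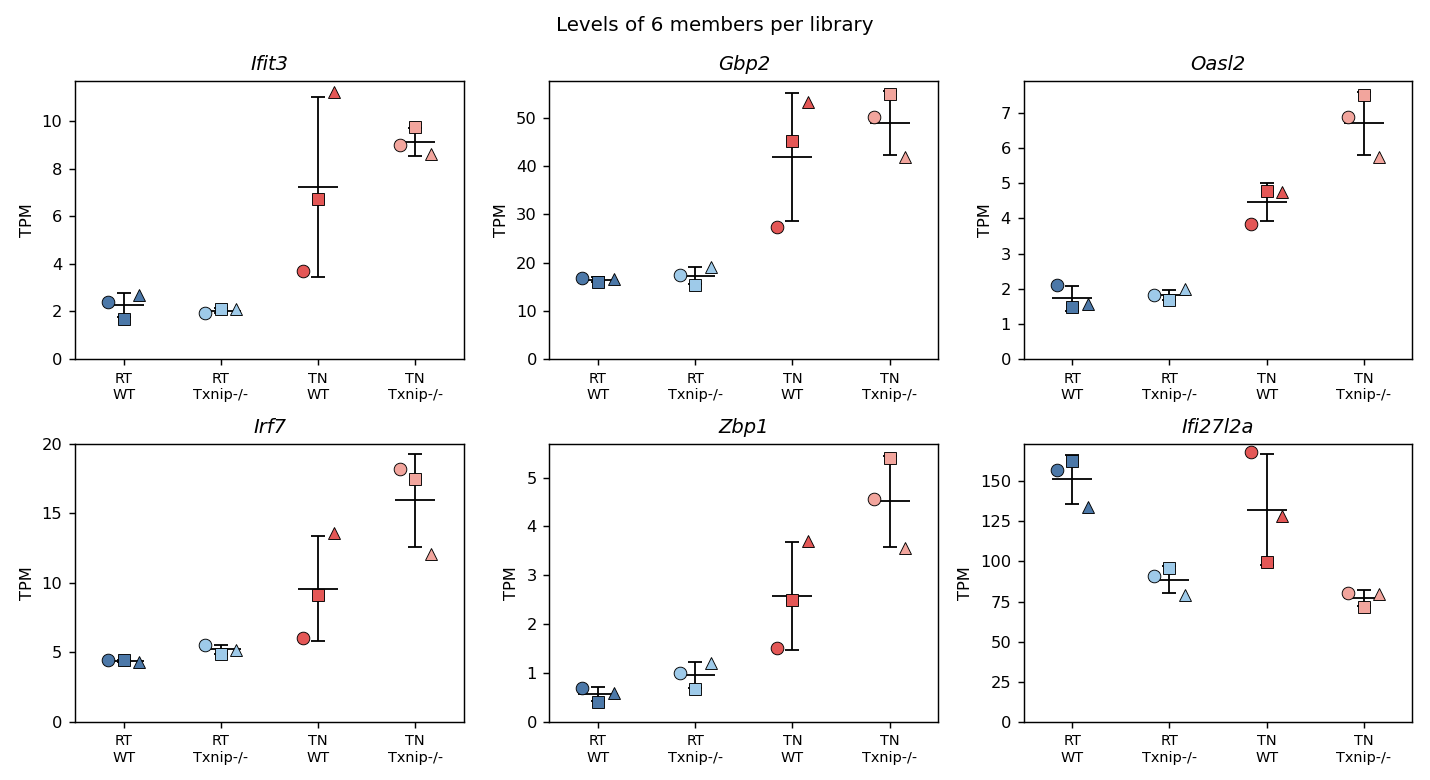
TPM (vertical axis) of 6 members in each of the 12 libraries by group (horizontal axis), with circles, squares and triangles for replicates 1, 2 and 3 and bars for the mean ± SD. Ifit3, Gbp2, Oasl2, Irf7 and Zbp1 are higher at TN in both genotypes, and their TN WT values spread upwards from replicate 1. Ifi27l2a is lower in Txnip-/- than in WT at each temperature.

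The knockout was compared with WT at RT on the 6 RT libraries, where 28 members were tested. None rose and 1 fell, against 0.76% and 0.726% of the 11980 genes tested. The median log2 fold change of the members was 0.05 and that of all genes 0.03, and 2 members had an unadjusted p under 0.05, as had 1921 of the 11980 genes. The member that fell was Ifi27l2a, of the Ifi27 family of small hydrophobic proteins, at 157, 163 and 134 TPM in RT WT and 91.1, 95.7 and 79.3 TPM in RT Txnip-/- (log2 fold change -0.76, SE 0.098, adjusted p = 0.0221). Every RT Txnip-/- library lay below every RT WT library. The call was lost without RT WT replicate 1 or 2 or RT Txnip-/- replicate 1 or 3, with log2 fold changes of -0.85 to -0.68 over all 6 such fits.

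The next members by size did not pass. Gbp7 was at 5.52, 6.76 and 5.60 TPM in RT WT and 7.89, 6.38 and 7.40 TPM in RT Txnip-/- (0.24, SE 0.11, adjusted p = 0.346), and the groups overlapped. Ifi35 was at 13.8, 17.1 and 17.6 TPM against 21.2, 15.8 and 20.3 TPM (0.22, SE 0.13, adjusted p = 0.476), also with overlap. Irf7 was at 4.43, 4.44 and 4.30 TPM against 5.56, 4.88 and 5.18 TPM, without overlap (0.20, SE 0.083, adjusted p = 0.293). The RT Txnip-/- libraries also carried more skeletal muscle RNA. The 8 muscle markers summed to 22.8 to 57.6 TPM there against 2.67 to 3.23 TPM in RT WT, and 7 of the 7 tested rose. With sums so low in RT WT, most of these 7 can have passed the low-value filter only through RT Txnip-/-. Their count thus adds little to the sums. The part of this in the RT values was not tested.

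At TN the comparison of Txnip-/- with WT on the 6 TN libraries tested 32 members. Of these, 1 rose and 1 fell, against 6.49% and 2.17% of the 12891 genes tested. The log2 fold change was above 0 for 30 of the 32, with a median of 0.27 against 0.01 over all genes, and 11 had an unadjusted p under 0.05, as had 3306 of the 12891 genes. Without 1 library this 11 went to between 4 (without TN Txnip-/- replicate 2) and 20 (without TN WT replicate 3), with 5 without TN WT replicate 1. The TN Txnip-/- libraries lay entirely above the TN WT libraries for 7 of the 32 members and for 17.7% of all genes. Oas1a is among these 7 and among the 11 above. Its TN mean was 0.972 TPM for WT against 1.86 TPM for the knockout, so only the knockout libraries carried it past the low-value filter. Mx2 entered likewise (0.987 against 1.14 TPM) but is in neither count. The filter can thus add members that are high in the knockout to these counts. The median of the members was 0.11 without TN WT replicate 1, 0.44 without TN WT replicate 3 and 0.36 without TN Txnip-/- replicate 3.

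Oasl2 (chr5:114896934-114912245) rose, from 3.83, 4.79 and 4.76 TPM in TN WT to 6.88, 7.5 and 5.74 TPM in TN Txnip-/- (log2 fold change 0.50, SE 0.12, adjusted p = 0.0378), without overlap. The call was lost in 5 of the 6 fits that left out 1 library, all but that without TN Txnip-/- replicate 3, with adjusted p of 0.0657 to 0.125, while the log2 fold change ranged from 0.41 to 0.59 over all 6. It was also lost with a block for the replicate number (adjusted p = 0.0554), without the low-value filter (adjusted p = 0.0946) and at a 1.5-fold threshold. Ifi27l2a fell again, from 169, 99.6 and 128 TPM to 80.5, 71.3 and 79.9 TPM (-0.74, SE 0.17, adjusted p = 0.0344), without overlap. Here TN WT replicate 1, the lowest of its group for 32 of the 34 members, was the highest library. The call was lost without TN WT replicate 3 or any 1 of the TN Txnip-/- replicates, with log2 fold changes from -0.92 to -0.55 over all 6 such fits.

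Irf7 showed the largest change without a call, from 6.03, 9.14 and 13.6 TPM in TN WT to 18.2, 17.5 and 12.1 TPM in TN Txnip-/- (0.72, SE 0.26, adjusted p = 0.123), and the highest WT library lay above the lowest knockout library. Without TN WT replicate 1 its difference was 0.46 (adjusted p = 0.246). Zbp1 went from 1.51, 2.49 and 3.71 TPM to 4.57, 5.41 and 3.55 TPM (0.66, SE 0.23, adjusted p = 0.112), likewise with overlap, and the difference was 0.43 without TN WT replicate 1 (adjusted p = 0.223). Ifitm3 was at 93.1, 111 and 130 TPM against 155, 183 and 139 TPM, without overlap (0.52, SE 0.14, adjusted p = 0.0565). By role, the medians at TN were 0.16 for the transcription factors, 0.25 for the sensors, 0.46 for the oligoadenylate synthetases, 0.37 for the IFIT genes, 0.24 for the large GTPases, 0.27 for the Isg15 pathway, 0.50 for the membrane proteins and 0.20 for the other effectors.

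**Figure D4:**
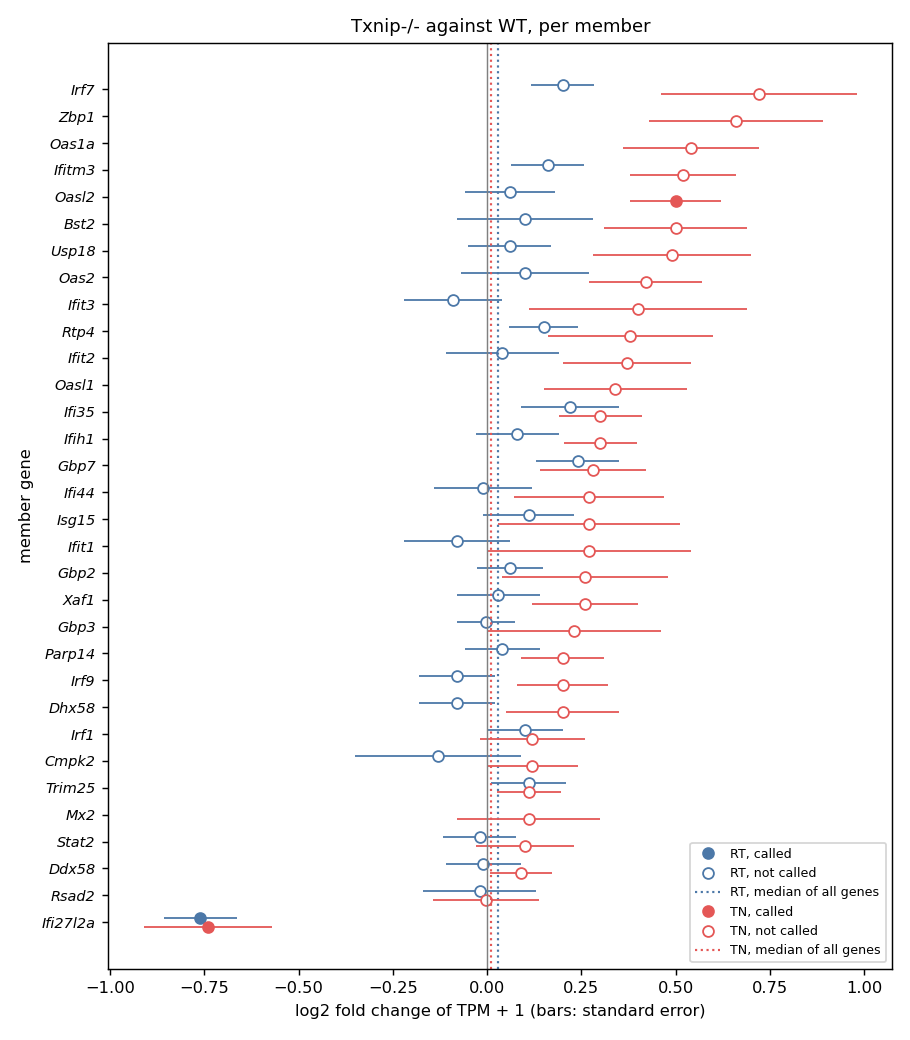
Log2 fold change of TPM + 1 in Txnip-/- against WT (horizontal axis, bars are standard errors) for each member tested (vertical axis), at RT and at TN. Filled symbols passed the call, and dotted lines are the medians of all genes, 0.03 at RT and 0.01 at TN. At RT most members lie near 0, at TN most lie to its right with wide errors, and Ifi27l2a lies to its left at both temperatures.

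Whether the genotype effect differed between temperatures was tested as an interaction on all 12 libraries. No member of the 30 tested was called, 1 had an unadjusted p under 0.05 (1571 of the 12486 genes had), and 0.00801% of the 12486 genes tested were called, which is Txnip alone. The interaction term was above 0 for 29 of the 30 members, with a median of 0.24 against -0.02 over all genes. Since both temperature comparisons and both genotype comparisons use the same 4 groups, their values for a member are not independent of this term. The 3 largest terms were those of Irf7 (0.52, SE 0.30, adjusted p = 0.502), Ifit3 (0.49, SE 0.36, adjusted p = 0.598) and Oasl2 (0.44, SE 0.17, adjusted p = 0.33, unadjusted p = 0.0252). Without TN WT replicate 1 the terms were 0.26 for Irf7 and 0.15 for Ifit3, the median was 0.12 and no member had an unadjusted p under 0.05. Without TN WT replicate 3 they were 0.78 and 0.83, the median was 0.40 and 10 members had an unadjusted p under 0.05, again with none called. For Ifi27l2a the term was 0.03 (SE 0.22).

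Ifi27l2a has a neighbour of the same family that was also lower in Txnip-/- at both temperatures. Its listed interval (chr12:103433873-103443680, minus strand) encloses Ifi27 (chr12:103434189-103440245, plus strand), a gene among the other interferon-stimulated genes listed. In the GENCODE M21 annotation the exons of the 2 genes share 0 bases, but whether counting used the strand is not given in the sources used here. Ifi27 was at 1496, 1558 and 1535 TPM in RT WT and 1114, 1184 and 1128 TPM in RT Txnip-/- (log2 fold change -0.42, SE 0.049, adjusted p = 0.0203). At TN it was at 1262, 1007 and 1090 TPM in WT and 881, 818 and 761 TPM in Txnip-/- (-0.45, SE 0.10, adjusted p = 0.0355). Both groups were apart at each temperature. Ifi27 was also called lower with temperature, by 0.46 in WT (adjusted p = 0.00109) and by 0.48 in Txnip-/- (adjusted p = 0.00059). The differences of Ifi27l2a, -0.22 and -0.20, had the same sign without a call, and the 2 genes were not compared by a test.

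The rest of the interferon pathway was counted from lists of 134 genes. Of the 21 interferon genes themselves, none reached the mean of 1 TPM needed for a test. The 16 listed above 0 in at least 1 library were Ifna1, Ifna2, Ifna4, Ifna5, Ifna7, Ifna11, Ifna12, Ifna13, Ifna14, Ifna15, Ifnab, Ifnk, Ifnz, Ifng, Ifnl2 and Ifnl3, none of them above 0.73 TPM, and Ifnb1 was listed at 0 throughout. Ifng was the interferon found in all 12 libraries together with Ifna7, at 0.037 to 0.265 TPM in RT WT, 0.201 to 0.307 in RT Txnip-/-, 0.302 to 0.356 in TN WT and 0.56 to 0.729 in TN Txnip-/-.

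Of 5 receptor chains tested, none was called by genotype at either temperature and 3 rose with TN in each genotype, where 31.4% (WT) and 30.9% (Txnip-/-) of all genes rose, with medians of 0.18 and 0.15. Ifnar1 rose by 0.45 in WT and 0.38 in Txnip-/-, Ifngr2 by 0.41 and 0.68, and Il10rb by 0.46 and 0.83. The log2 difference of Ifnar2 was 0.25 in Txnip-/- (adjusted p = 0.0224), which is under the fold threshold, and 0.0045 in WT (adjusted p = 0.969). Ifngr1 gave 0.18 (adjusted p = 0.31) and 0.13 (adjusted p = 0.468), and Ifnlr1 was too low to test.

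Among 15 kinases, STATs, IRFs and inhibitors, 8 rose and 1 fell with TN in WT, and 9 rose in Txnip-/-, where 31.4%, 6.39% and 30.9% of all genes did. The gene that fell was Irf3 (-0.33). Irf8, a factor of myeloid cells, rose by 1.26 in WT and 1.80 in Txnip-/-, and was the largest of the 4 that rose by genotype at TN (1.12, adjusted p = 0.00998), before Ptpn6 (0.90), Socs3 (0.68) and Irf5 (0.50). Of the upstream sensing genes, 8 of 13 rose and 1, Myd88, fell (-0.55) with TN in WT, 7 of 13 rose in Txnip-/-, and 4 of 18 (Ikbke, Tlr9, Samhd1 and Tlr7) rose by genotype at TN, where 6.49% of all genes did. Ikbke, Tlr9 and Tlr7 passed the low-value filter only through Txnip-/-, with means of 0.625, 0.549 and 0.725 TPM in TN WT. The filter thus favours genes high in Txnip-/- in this count. At RT no gene of these lists was called by genotype.

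A further 74 interferon-stimulated genes that are no members were followed in the same way. With TN, 45 of 60 rose and 2 fell in WT (Ifi27 and Helz2) and 53 of 60 rose and 1 fell in Txnip-/- (Ifi27), against the shares of all genes given above. Cxcl10, a chemokine that draws T cells, changed most, from 1.39, 1.12 and 1.26 TPM in RT WT to 3.84, 8.71 and 11 TPM in TN WT (1.87, SE 0.30, adjusted p = 0.000588), and by 2.49 in Txnip-/-. Iigp1 (1.47), Gbp5 (1.40) and the immunoproteasome subunit Psmb8 (1.32) followed in WT, and Iigp1 (1.79) and Slfn2 (1.65) in Txnip-/-. By genotype, 1 of 56 rose (Epsti1, 0.78) and 1 fell (Ifi27) at RT, and 8 of 65 rose and 1 fell at TN. At RT Epsti1 passed the low-value filter only through Txnip-/-, with means of 0.742 TPM in RT WT and 1.98 TPM in RT Txnip-/-. So did tested genes at TN, such as Gbp8 (0.544 and 1.56 TPM) and Slfn8 (0.953 and 2.07 TPM). Of all genes, 0.76% rose and 0.726% fell at RT, and 6.49% rose and 2.17% fell at TN. Those that rose at TN included Epsti1 (1.15), Slfn2 (1.11) and the inflammatory caspase Casp4 (1.01), and the median of the 65 was 0.25.

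Markers of leukocytes moved with the members between temperatures. The 12 macrophage markers (such as Adgre1, Cd68 and Csf1r) summed to 86.9 to 102 TPM in RT WT, 141 to 223 TPM in RT Txnip-/-, 182 to 314 TPM in TN WT and 507 to 718 TPM in TN Txnip-/-. In bulk tissue, more cells of a type and more RNA per cell cannot be told apart, nor can fewer cells and less RNA per cell. Of these markers 10 of 12 rose with TN in WT and 11 of 12 in Txnip-/-, 3 of 10 rose by genotype at RT and 10 of 12 at TN. Of all genes, 31.4%, 30.9%, 0.76% and 6.49% rose in these 4 comparisons. Within TN WT the sum was 182, 249 and 314 TPM in replicates 1, 2 and 3, and within TN Txnip-/- 632, 718 and 507 TPM, which is the order of the libraries by the mean of the members in both groups. The T and NK cell sums had this order too. The sums of neutrophil, conventional dendritic cell, plasmacytoid dendritic cell and B and plasma cell markers did not have it in both groups. The T and NK cell markers summed to 3.07 to 3.94 TPM in WT and 6.04 to 8.16 TPM in Txnip-/- at RT, and to 5.41 to 14.7 and 21 to 28.3 TPM at TN. For plasmacytoid dendritic cells, known as strong producers of type I interferon, the sums were, in the same order, 0.819 to 1.19, 1.66 to 2.17, 2.31 to 3.66 and 6.39 to 7.23 TPM. In this list Cox6a2 was at 0 TPM in all RT WT libraries and at 0.37, 0.484 and 0.644 TPM in RT Txnip-/-. Those RT Txnip-/- libraries also carried more skeletal muscle RNA, and its part in these sums was not tested. The sums of macrophage, T and NK cell and plasmacytoid dendritic cell markers were higher in every RT Txnip-/- library than in every RT WT library. For single genes this held for 1804 of the 11980 tested at RT. Of the T and NK cell markers 2 were tested at RT and 0 called. At RT 0 plasmacytoid dendritic cell markers reached the mean needed for a test.

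Markers of other cells of the tissue changed as well. The 7 fibroblast markers summed to 223 to 280 TPM in RT WT, 274 to 333 in RT Txnip-/-, 376 to 507 in TN WT and 869 to 884 in TN Txnip-/-, and the 8 endothelial markers to 341 to 370, 263 to 349, 463 to 559 and 488 to 617 TPM. In the same order of groups, conventional dendritic cell markers summed to 8.32 to 9.85, 10.3 to 12.5, 13.4 to 15.4 and 21.5 to 26.4 TPM, B and plasma cell markers to 1.68 to 3.47, 3.01 to 4.23, 5.62 to 7.86 and 17.7 to 25.6 TPM, and neutrophil markers to 2.01 to 3.93, 1.86 to 4.17, 6.96 to 9.49 and 8.37 to 16.2 TPM. No marker in these lists was at 0 in all libraries. The brown adipocyte markers went the other way, at 27996 to 28917 TPM in RT WT, 24626 to 29511 in RT Txnip-/-, 20077 to 21735 in TN WT and 17294 to 19051 in TN Txnip-/-, with overlap of the genotypes at RT. Of the 8 markers, 4 fell with TN in WT and 5 in Txnip-/-, where 6.39% and 8.27% of all genes fell. By genotype 1 fell at RT and 3 at TN (Ucp1, Cox8b and Cidea), where 0.726% and 2.17% of all genes fell, and the differences of Adipoq (0.18) and Fabp4 (0.03) at TN were above 0. The part of these cell types in the changes of the interferon-stimulated genes was not tested.

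**Figure D5:**
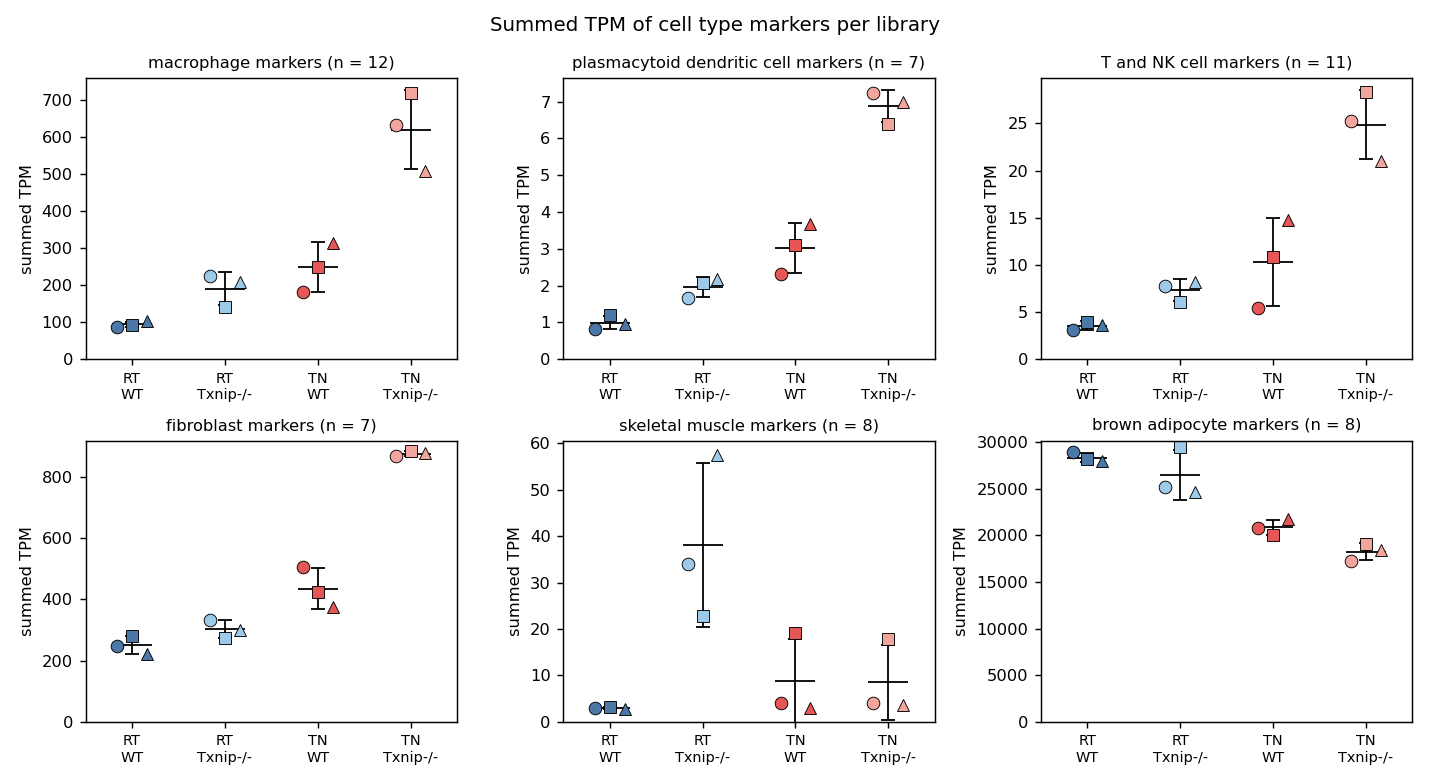
Summed TPM (vertical axis) of the markers of 6 cell types in each library by group (horizontal axis), with circles, squares and triangles for replicates 1, 2 and 3 and bars for the mean ± SD. Macrophage markers run from 86.9 to 718 TPM and are highest in TN Txnip-/-, skeletal muscle markers are highest in RT Txnip-/-, and brown adipocyte markers are lower at TN than at RT.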

How the data were processed

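RNA-seq of poly(A) RNA from BAT covered 12 libraries in 4 groups. Per the labels, the authors used bcl2fastq, STAR 2.7.5a, HOMER 4.11.1 and DESeq2 with mm10. They deposited TPM per gene for all libraries, analysed here, and per temperature a table of log2-scale values, used as an alternative, with columns of their own fold changes and p-values, which were not used. Counts and strand use are not given in the sources used here, and TPM keep no depth, so no interval from counting is given. The log-scale tables list another transcript than the TPM table for 11 (RT) and 12 (TN) members. With limma 3.58.1 (R 4.3.3), a moderated test with a trend was fitted to log2(TPM + 1) of all genes with a mean of at least 1 TPM, with Benjamini-Hochberg adjustment. Genotypes were compared on the 6 libraries of a temperature, the temperatures and the interaction on all 12. The fit was tested on simulated data. Fold changes are on the log2(TPM + 1) scale, which understates those of low genes.

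The members and lists were chosen with earlier results of these data known. All members were accounted for by role. Values with tests were given in each comparison for up to 5 called members of each sign by size, and for the 3 largest where fewer than 3 were called. Of the other lists, receptors, ligands above 0 and the largest called genes were named, and the others counted. The values of 1 further gene that this rule names are not reported here. Promoters of called members with a match were shown, up to 5, and that of Isg15 was added after its values were seen. Cell type markers were summed per library. The alternatives were another pseudocount (0.1), no filter, 2 scalings, a replicate block, other thresholds, the log-scale values, 1 fit of all libraries and leaving out each library. Replicate numbers were not treated as pairs.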

Additional observations from a re-analysis of the deposited data

How the results depend on the processing

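Leaving out 1 library gave 22 to 27 members higher in WT and 27 to 30 in Txnip-/-, and 0 to 1 lower in WT (Ifi27l2a, without TN WT replicate 1). The difference of the member means in Txnip-/-, 0.94, moved to 1.11 with log2(TPM + 0.1), 0.80 with upper-quartile scaling and 0.75 with median centring, and that in WT, 0.70, to between 0.58 and 0.85 without 1 library. The single lower call at RT (Ifi27l2a) became 0 without the low-value filter and ranged from 0 to 1 without 1 library. At TN the higher count of 1 became 0 at a 1.5-fold threshold, 0 without the filter and 0 with a replicate block, and 2 (Oasl2 and Ifitm3) at an adjusted p under 0.1, with the authors' log-scale values and with all 12 libraries in 1 fit. Without 1 library it ranged from 0 to 2 and the lower count from 0 to 1, and the lower count was 0 without the filter. The filter changes how many genes are adjusted for, and the other causes were not tested. No change of a named member turned its direction under any alternative run.

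The replicate block left 25 members higher in WT and 29 in Txnip-/-, 0 higher and 1 lower (Ifi27l2a) by genotype at each temperature, and no call for the interaction, with Oasl2 at TN going to an adjusted p of 0.0554 by limma. Deviations of same-numbered libraries correlated with r from -0.132 to 0.297. This cannot decide whether libraries were paired, for example by litter, since each value rests on 1 pair of libraries. The study calls the WT mice littermates of the knockouts, but the labels name no pairs. The sample descriptions number RT and TN libraries differently. Over all genes, the RT counts of 91 higher and 87 lower fell to 20 and 24 without the filter and to 48 and 52 with the block, and went to 145 and 127 with all 12 libraries in 1 fit and 197 and 157 at an adjusted p under 0.1. Without 1 library they were 0 and 2 (RT WT replicate 2), 11 and 20 (RT WT replicate 1), 10 and 23 (RT Txnip-/- replicate 1), 11 and 14 (RT Txnip-/- replicate 3), 52 and 35 (RT Txnip-/- replicate 2) and 74 and 85 (RT WT replicate 3). The share of all genes called at RT thus depended on which library was left out, in fits that also hold fewer libraries. At TN, 836 and 280 went to 483 and 138 without the filter and 515 and 84 at a 1.5-fold threshold, and the lower count was 184 with the log-scale values. Without 1 library they were 359 and 97 (TN Txnip-/- replicate 1), 361 and 103 (TN Txnip-/- replicate 2), 530 and 173 (TN WT replicate 1), 537 and 147 (TN WT replicate 3), 634 and 208 (TN WT replicate 2) and 724 and 281 (TN Txnip-/- replicate 3). With TN in WT, 3919 and 798 went to 2189 and 1756 with upper-quartile scaling, 1926 and 1841 with median centring and 1608 and 368 at a 1.5-fold threshold, with 1232 lower without a fold threshold. In Txnip-/-, 3858 and 1033 went to 2647 and 2079, 2294 and 2435, and 2006 and 374, with 1685 lower without a fold threshold. At an adjusted p under 0.1 the interaction gave 18 genes higher and 7 lower in place of 1.

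TPM hold no read counts, so the precision of the low members (Oas3, Mx1, Mx2, Oas1a) is unknown. Exons of 11 members overlap another gene in GENCODE M21, 7 on the opposite strand (such as Irf7 with Phrf1), where reads cannot be told apart without strand, and 4 on the same strand (Irf9 with Rnf31, Gbp7 with Gm43802, Rtp4 with Gm45338 and Parp14 with Gm49730), where strand does not separate them. The 3 libraries per group limit the genotype comparisons, where 1 library moved the median of the members from 0.27 to 0.11.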
